A study of Mus musculus with 2 samples.

Results

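A group of 10 genes tied to T-cell anergy was followed in mouse T cells after contact with RPE, short for retinal pigment epithelium, and in control T cells. This epithelium is a single pigmented sheet that lies against the photoreceptors of the eye. The group holds the ubiquitin ligases Cblb, Cbl, Rnf128, Itch and Nedd4, the ligase adaptor Ndfip1, the diacylglycerol kinases Dgka and Dgkz, and the surface genes Nrn1 and Izumo1r. Its members are all probe sets, groups of short probes for 1 transcript, that the platform annotation gives to exactly 1 gene of that group. This selected 23 probe sets and found all 10 genes, out of 18193 genes on the array. Each condition had 1 array, so no value has a spread between samples, no difference could be tested, and precision is limited by the number of arrays.

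The study asked how RPE alters T cells, those that make interleukin-17 in particular. The exposed sample was titled as T cells that had met RPE, although its tissue field named primary cultured RPE, and the title of the control named CD4 T cells. Both came from male mice 6 weeks old with a C57 BL/6 background, and no transgene, knockout or added agent was named for either. How long or in what form the cells met the epithelium, how they were activated, and whether animals were pooled is not given in the sources used here.

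Anergy is a state in which a T cell that has met antigen without full costimulation stays alive but responds poorly when it meets the antigen again. E3 ubiquitin ligases are linked to it because they tag signalling proteins below the T-cell receptor for degradation or removal. Diacylglycerol kinases are linked to it because they convert diacylglycerol, the lipid messenger that switches on Ras and protein kinase C theta, into phosphatidic acid. Several of these genes are induced by NFAT acting without AP-1, and by the transcription factors Egr2 and Egr3.

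Most of the group had nearly the same signal on both arrays, and Izumo1r stood lower in RPE-exposed T cells. A signal here is the deposited linear intensity of a probe set, and a gene is read from its brightest probe set. Signals were compared above a floor set at each array's median, 16 on the RPE-exposed and 15.9 on the control array. Above it lay 9 of the 10 members, each on both arrays, and the remaining gene, Rnf128, lay under it on both. None of the 9 differed by at least 2-fold in either direction, where 1.06% of all 11015 genes compared did (0.436% higher and 0.626% lower). Izumo1r was the 1 member that differed by at least 1.5-fold, and it was lower. Among all genes compared 6.93% differed by at least 1.5-fold, with 3.11% higher and 3.81% lower, so 1 of 9 is not far from the background. The 9 members had a median log2 difference, RPE-exposed minus control, of 0.095, with 5 positive and 4 negative, and all genes compared had a median of -0.0092. At the level of probe sets, 20 of the 21 above the floor lay within 1.5-fold and none reached 2-fold, with 12 positive and 9 negative differences. Of all probe sets of 1 gene above the floor, 7.32% passed 1.5-fold and 1.2% passed 2-fold.

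**Figure D1:**
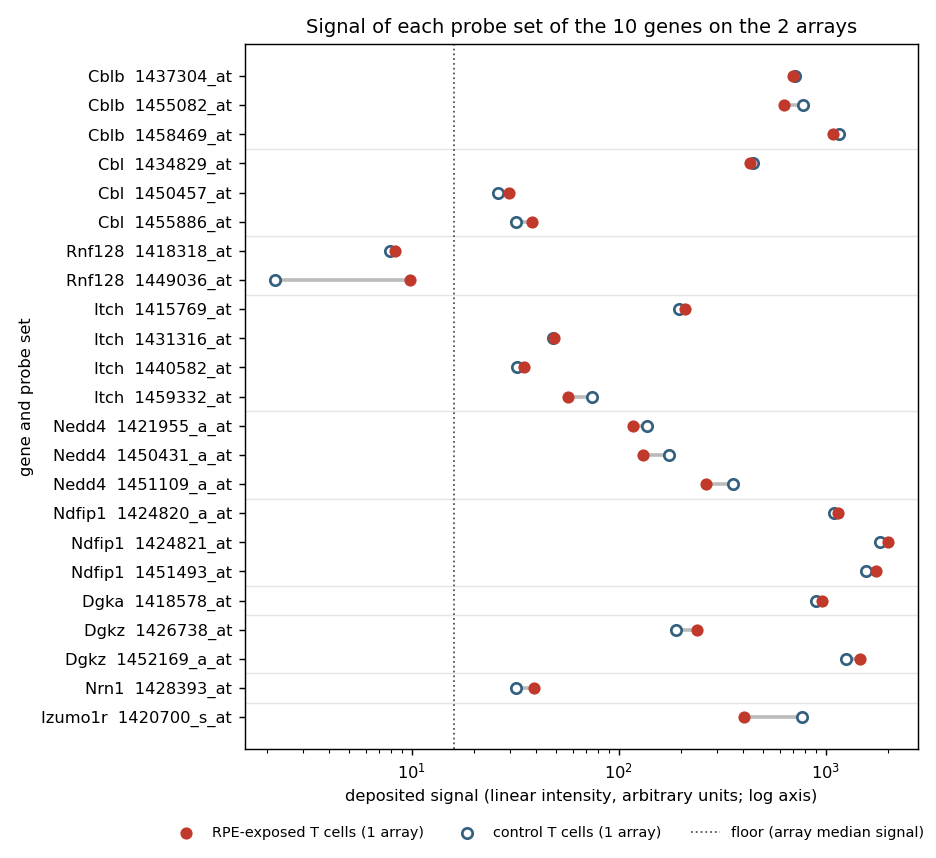
Deposited signal (linear intensity, log axis) of every probe set of the 10 genes, with RPE-exposed T cells as filled red points and control T cells as open blue points, 1 array each. The dotted line marks the floor. Most pairs nearly coincide, Izumo1r is at 403.6 in exposed and 765.5 in control cells, and both probe sets of Rnf128 lie under the floor.

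The 250 bases before the annotated start are given for Izumo1r, the member with the largest difference, and for Nedd4 (first of 2 listed starts) and Cblb, the ligases whose probe sets were all lower. They are RefSeq sequences of mouse build GRCm38.p6 on the gene's own strand, from 5′ to 3′. The Izumo1r window is chr9:14903768-14904017 (minus strand), the Nedd4 window chr9:72662081-72662330 (plus strand) and the Cblb window chr16:52031299-52031548 (plus strand). Capitals mark matches, on either strand, to the NFAT core GGAAA or to the EGR motif GCGNGGGCG.
Izumo1r promoter: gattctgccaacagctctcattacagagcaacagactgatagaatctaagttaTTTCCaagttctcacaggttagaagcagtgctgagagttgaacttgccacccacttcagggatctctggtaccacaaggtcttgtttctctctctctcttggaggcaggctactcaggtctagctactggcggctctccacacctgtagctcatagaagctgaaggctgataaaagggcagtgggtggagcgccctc
Nedd4 promoter: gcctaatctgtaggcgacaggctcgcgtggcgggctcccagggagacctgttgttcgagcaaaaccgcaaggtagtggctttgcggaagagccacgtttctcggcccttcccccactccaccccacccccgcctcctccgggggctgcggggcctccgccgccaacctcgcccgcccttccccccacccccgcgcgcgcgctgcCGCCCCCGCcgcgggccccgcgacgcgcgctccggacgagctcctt
Cblb promoter: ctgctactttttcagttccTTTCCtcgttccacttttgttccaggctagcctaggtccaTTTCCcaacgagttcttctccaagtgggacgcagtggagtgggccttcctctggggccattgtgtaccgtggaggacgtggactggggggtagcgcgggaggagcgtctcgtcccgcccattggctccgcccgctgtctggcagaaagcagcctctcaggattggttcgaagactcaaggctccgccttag

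The Izumo1r window held 1 NFAT core, on the reverse strand at positions -197 to -193 counted from the start, and no EGR match. The Cblb window held 2 NFAT cores, and this Nedd4 window 1 EGR match at positions -46 to -38. RefSeq windows were at hand for 7 of the 10 members, 12 windows in all, some of which overlap within a gene. The NFAT core occurred in 9 of these 12 windows, against 55.6% of all 32851 promoter windows of that length, and the EGR motif in 2 of 12 (Cbl and Nedd4), against 4.70%. The FOXO motif GTAAACA occurred in 0 of 12, against 3.17%, and the NR4A response element in 0 of 12, against 1.34%. No match overlapped a match to another of these motifs. A match describes the letters only, and so short a core occurs in most promoters.

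Cblb and Cbl, the ligases of the Cbl family in this group, were close on both arrays. Cblb encodes the RING ligase Cbl-b, which limits signalling through the T-cell receptor when CD28 is not engaged. Its 3 probe sets gave signals of 1086.8, 697.4 and 631.0 in RPE-exposed T cells, against 1160.2, 712.8 and 776.4 in control T cells. All 3 were lower in exposed cells, the brightest by 1.07-fold (log2 difference -0.094), and their differences averaged -0.14 ± 0.14 (SD over probe sets, which is not replicate error). Cbl, which encodes the related c-Cbl, had a signal of 432.5 in exposed and 448.2 in control cells with its brightest probe set, a log2 difference of -0.051. Its other probe sets were dim, at 29.7 and 38.2 in exposed and 26.2 and 31.9 in control cells, and differed the opposite way, at 0.18 and 0.26. The sign of Cbl is therefore not settled by these arrays, and when its 3 probe sets were averaged the difference was 0.13.

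Itch and Nedd4 encode ligases of the HECT type, and both lay inside their like-level ranges, the central 95% of log2 differences of genes of similar mean level. Itch, whose loss in mice causes an itching inflammatory disease, had a signal of 209.4 in RPE-exposed and 196.0 in control T cells, a log2 difference of 0.095. A pair of its dimmer probe sets were close to equal, at 48.7 and 34.8 in exposed cells and 48.2 and 32.5 in control cells. The last one was lower, at 57.3 in exposed and 74.3 in control cells (-0.37), and the average over all 4 was -0.041, so the sign depended on the probe set. Nedd4, which in mouse T cells is known to act on Cbl-b itself, was lower with each of its 3 probe sets. They gave 266.0, 130.9 and 117.4 in exposed cells, against 358.5, 174.4 and 137.5 in control cells. The differences of -0.43, -0.41 and -0.23 averaged -0.36 ± 0.11 (SD over probe sets). The brightest was 1.35-fold lower, inside its like-level range of -0.46 to 0.41. Of the 551 genes of like mean level, 20 were as low or lower, Nedd4 included.

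Ndfip1, a membrane adaptor that recruits and activates Itch and Nedd4, differed little. Its 3 probe sets had signals of 1999.6, 1743.6 and 1145.8 in RPE-exposed and 1828.4, 1573.6 and 1103.4 in control T cells. Each was slightly higher in exposed cells, and the log2 differences averaged 0.11 ± 0.050 (SD over probe sets). Rnf128 encodes GRAIL, a membrane-bound RING ligase first described in anergic CD4 T cells. Its probe sets had signals of 8.3 and 9.8 in exposed cells, against 7.9 and 2.2 in control cells. All 4 values lay under the floor, so Rnf128 was not measurable on either array, and the gap between 9.8 and 2.2 carries no fold.

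**Figure D2:**
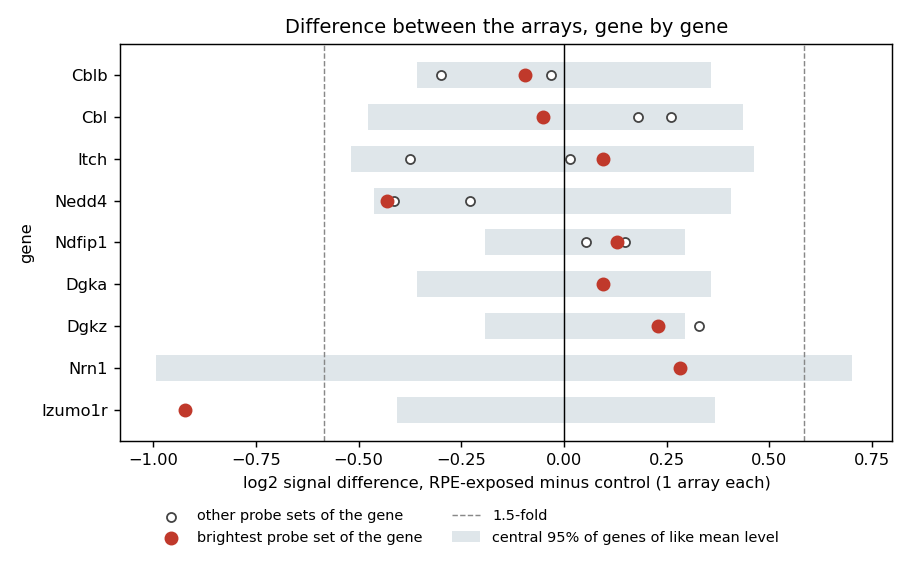
Log2 signal difference, RPE-exposed minus control, for the 9 genes above the floor. Red points are the brightest probe set of a gene, open points its other probe sets, grey bars the central 95% of genes of like mean level, and dashed lines 1.5-fold. Izumo1r lies outside its bar and past the line at -0.92, and the probe sets of Cbl and of Itch fall on both sides of 0.

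The diacylglycerol kinases were both slightly higher in RPE-exposed T cells. Dgka, the isoform recruited to the membrane after receptor engagement, had a signal of 959.7 in exposed and 898.6 in control cells, a log2 difference of 0.095 on its single probe set. Dgkz, the zeta isoform, which restrains diacylglycerol signalling in T cells, gave 1474.5 and 238.2 in exposed cells, against 1258.6 and 189.5 in control cells. Its differences of 0.23 and 0.33 averaged 0.28 ± 0.072 (SD over 2 probe sets), and the brighter one was 1.17-fold higher. That value lay inside the like-level range of -0.19 to 0.30, toward its upper end, with 1842 of the 11015 genes compared as high or higher. The dimmer probe set reached 1.26-fold.

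The surface genes differed from each other. Nrn1 encodes neuritin, a small lipid-anchored protein known from neurons and found on anergic and regulatory T cells. It had a dim signal of 38.9 in RPE-exposed and 32.0 in control T cells. Its log2 difference of 0.28 lay well inside the wide like-level range of -0.99 to 0.70, so no difference could be read at this brightness.

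Izumo1r, earlier named Folr4, encodes folate receptor 4, a surface protein of regulatory and anergic CD4 T cells that is also the egg's receptor for the sperm protein Izumo1. It had a signal of 403.6 in RPE-exposed T cells, against 765.5 in control T cells. It was thus 1.90-fold lower in exposed cells, a log2 difference of -0.92. The like-level range was -0.41 to 0.37, and 3 of the 550 genes of like mean level, Izumo1r included, were as low or lower. Among all 11015 genes compared, 97 were as low or lower. The value rests on a single probe set, whose name ends in s and so marks probes shared by several transcripts, and no other probe set of the gene could be set beside it. In a bulk sample, fewer cells that make a transcript and less transcript per cell cannot be told apart.

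**Figure D3:**
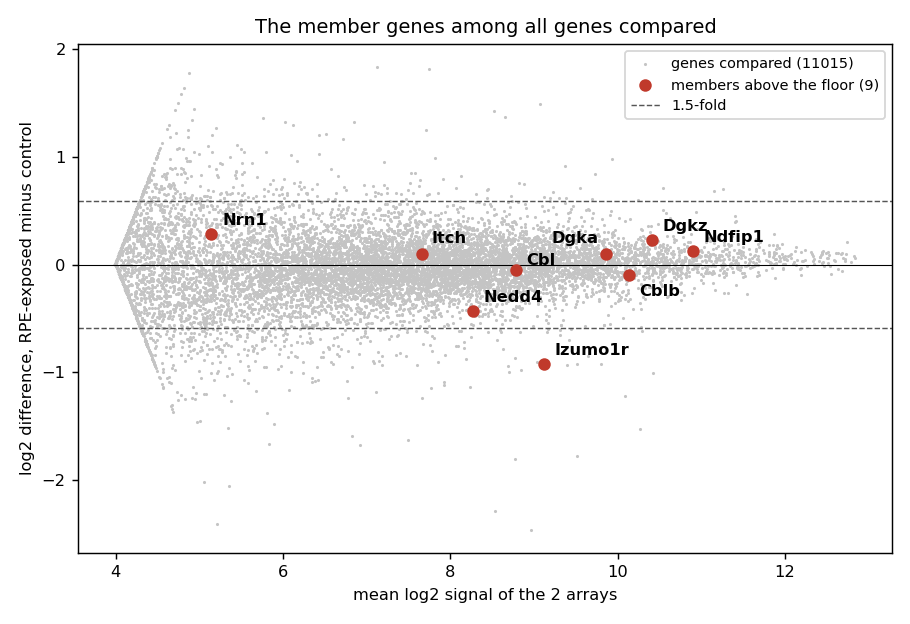
Log2 difference, RPE-exposed minus control, against mean log2 signal for the 11015 genes compared (grey) and the 9 members above the floor (red, labelled), with dashed lines at 1.5-fold. The straight edges at the left come from signals set to the floor. Izumo1r lies below the dashed line at -0.92, and the other members lie between -0.43 and 0.28.

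The genes whose pattern over the 2 arrays was nearest to Izumo1r were found by distance between floored log2 signals. They were Tnfaip3, an inhibitor of NF-kappaB, at 385.3 in exposed and 720.6 in control cells, H2-Eb1, an MHC class II chain of antigen-presenting cells, at 457.1 and 707.7 in the same order, and Babam2, at 466.8 and 706.2. Their distances were 0.11, 0.21 and 0.24 on the log2 scale. With 2 arrays, such a likeness says only that both signals were alike.

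Other cell types in the samples were checked by markers. T-cell markers were alike, with 7 of 8 listed genes measured, all above the floor on both arrays, a median difference of -0.013, and summed signals of 11160.3 in exposed and 10649.2 in control cells. Their differences, with the brightest probe set of each gene, ran from -0.082 to 0.21. The dimmer probe set of Cd4 was 1.51-fold higher, at 186.7 in exposed and 123.6 in control cells. The brightest probe set of Cd4 had 271.1 in exposed and 287 in control cells. B-cell markers were lower in exposed cells in 7 of 7 measured genes. Of these, 3 were at least 1.5-fold lower (Cd22, Blk and Vpreb3), where 3.81% of all genes compared were. The 7 had a median of -0.54 and summed signals of 1048.7 in exposed and 1527.4 in control cells. Macrophage and dendritic-cell markers were dim and went both ways, with 5 negative and 2 positive differences over the 7 of 9 above the floor, a median of -0.43, and summed signals of 166.3 in exposed and 214.4 in control cells. Lyz1, a lysozyme gene, had 7.5 in exposed and 41.3 in control cells, at least 2.58-fold lower since the exposed signal lay under the floor, and Lyz2 was 1.51-fold lower. The positive ones were Csf1r, at 31.4 in exposed and 29.1 in control cells, and Adgre1, at 17.8 in exposed and 15.2 in control cells, and a further probe set of Csf1r was at least 2.17-fold higher. Of 12 RPE markers 11 lay under the floor on both arrays, and Rdh5 had 16.1 in exposed and 12.7 in control cells. No marker of these lists had a signal of 0. The part of the B-cell and macrophage markers in the lower Izumo1r signal was not tested.

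Transcription factors that are known to induce anergy genes had 8 negative and 4 positive differences. Of 12 listed factors, all above the floor, 3 were lower by 1.5-fold or more and none was higher by that much, against 3.81% lower and 3.11% higher among all genes compared. Their median difference was -0.13. Nr4a3, an orphan nuclear receptor, had 393.2 in RPE-exposed and 1349.4 in control T cells (3.43-fold lower, 1 probe set above the floor). Egr2, a zinc-finger factor linked to anergy in mouse T cells, had 166.6 in exposed and 353.9 in control cells (2.12-fold lower), and its second probe set was 1.63-fold lower. Nr4a2 had 43.7 in exposed and 85.8 in control cells (1.96-fold lower), but its probe sets disagreed in sign. Nr4a1 had 1087.3 in exposed and 1395.3 in control cells (1.28-fold lower, just below its like-level range). Egr1 had 559.1 in exposed and 749.1 in control cells (1.34-fold lower, inside its like-level range). Egr3, the close relative of Egr2, had 383.7 in exposed and 442.5 in control cells (1.15-fold lower, inside its like-level range), and its dimmer probe set was at least 2.61-fold lower, at 8.8 in exposed cells, under the floor, against 41.7 in control cells. The NFAT genes Nfatc1 and Nfatc2 had differences of -0.015 and 0.40, both inside their like-level ranges, and the probe sets of each disagreed in sign.

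Among genes that act beside the members, 2 of 15 other ligases and adaptors were at least 1.5-fold higher and none was lower by that much, where 3.11% of all genes compared were higher and 3.81% lower. Their median difference was -0.048, with 6 positive and 9 negative. Dtx1 fell just short of the 1.5-fold cut, at 57.1 in exposed and 85.5 in control cells. It was 1.497-fold lower, inside its like-level range. Wwp1, a HECT ligase of the same family as Itch and Nedd4, had 236.2 in RPE-exposed and 148.7 in control T cells (1.59-fold higher), and its 3 probe sets were all higher, at 0.50 ± 0.15 (SD over probe sets). Cblc, the third Cbl family member, had 53.3 in exposed and 27.9 in control cells on 1 dim probe set (1.91-fold higher), while its other probe set lay under the floor. With probe sets averaged, 0 of these genes reached 1.5-fold.

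Of 11 ligases listed as relatives of Rnf128, 6 were above the floor and none differed by 1.5-fold. The widest differences were those of Znrf3, a ligase that removes Wnt receptors, at 80.2 in exposed and 95.8 in control cells, and Rnf150, at 21.3 in exposed and 18.1 in control cells. Like Rnf128, 5 others of this set lay under the floor on both arrays.

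Of 6 other diacylglycerol kinases measured, 4 were above the floor, none differed by 1.5-fold, and 3 were lower, with a median of -0.30. The 2 other listed kinases are not analysed here. Dgke had 71.6 in exposed and 96.8 in control cells, and Dgkq 22.0 in exposed and 28.4 in control cells. These are dim signals, and the 3 genes with several probe sets (Dgkd, Dgke and Dgkh) disagreed in sign over them.

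Of the genes for diacylglycerol and Ras signalling and for ligase substrates, 15 of 22 listed were measured, and the other 7 are not analysed here. Only Jun, an AP-1 subunit and a substrate of Itch, differed by 1.5-fold. That is 6.67% of the 15, near the 6.93% of all genes compared. It had 215.7 in RPE-exposed and 396.2 in control T cells (1.84-fold lower, below its like-level range), with 2 probe sets at -0.78 ± 0.14 (SD over probe sets). Next came Rasgrp1, the exchange factor that diacylglycerol recruits to switch on Ras and so the step that diacylglycerol kinases oppose. It had 325.0 in exposed and 476.0 in control cells (1.46-fold lower). That lay below its like-level range of -0.48 to 0.44, and its 4 probe sets were all lower, at -0.46 ± 0.24 (SD over probe sets). Junb, on the same list as Jun, had 400.2 in exposed and 448.8 in control cells, a log2 difference of -0.17 inside its like-level range. The median of these 15 genes was -0.056, with 4 positive and 11 negative differences, against 5316 positive and 5670 negative among all genes compared.

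Of the other surface genes of anergic or tolerant T cells and the relatives of Izumo1r and Nrn1, 7 of 9 were above the floor. Of the 7, 2 had a signal higher by 1.5-fold or more, as had 3.11% of all genes compared. The median difference of the 7 was 0.046. Ctla4, Btla and Lag3, the brightest of this list, had log2 differences of 0.046, -0.18 and -0.068, each inside its like-level range. Nrp1, a co-receptor found on regulatory T cells, had 49.5 in RPE-exposed and 27.9 in control T cells (1.77-fold higher). Pdcd1, which encodes the inhibitory receptor PD-1, had 121.5 in exposed and 79.8 in control cells (1.52-fold higher, 1 probe set). With an offset of 16 added to all signals, 0 genes of this list were 1.5-fold higher. Nt5e, which encodes CD73 and is used together with folate receptor 4 to mark anergic CD4 T cells, had 24.8 in exposed and 21.3 in control cells, a difference of 0.22 inside its like-level range. The nearest relatives of Izumo1r were at the floor or under it, with Folr1 at 16.4 in exposed and 12.0 in control cells and Folr2 at 1.3 and 5.8 in the same order. Nrn1l, the relative of Nrn1, was under the floor on both arrays.

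**Figure D4:**
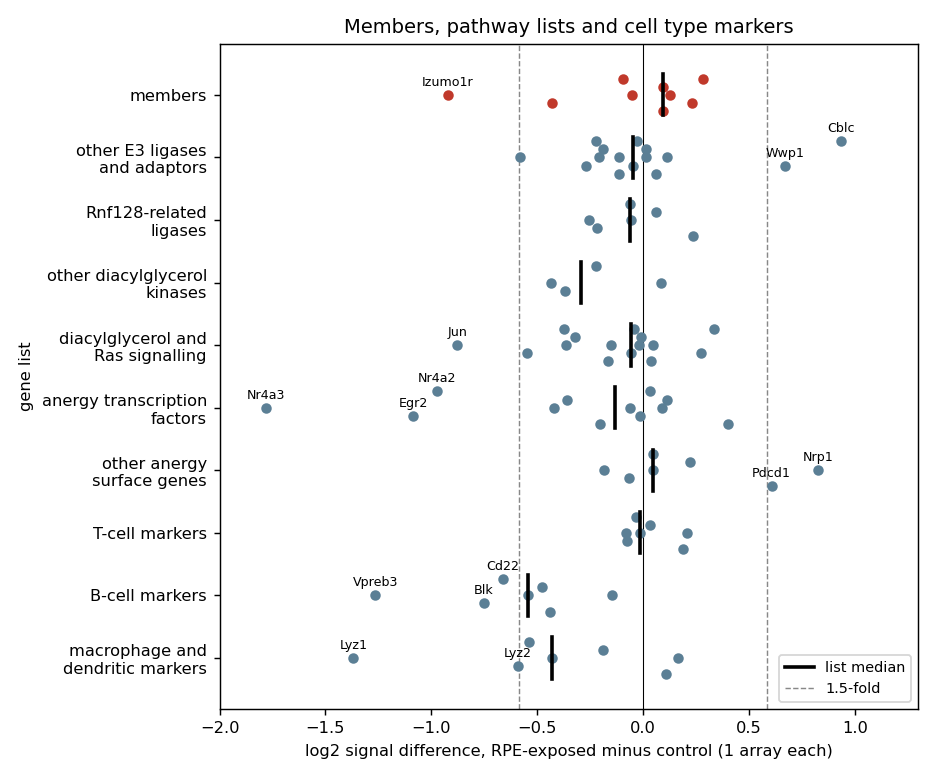
Log2 signal differences, RPE-exposed minus control, of the 9 members (red), of 6 lists of related genes and of markers of 3 cell types (blue), 1 point per gene above the floor, with list medians as black bars and dashed lines at 1.5-fold. Genes past 1.5-fold are named. Members centre near 0 apart from Izumo1r, whereas all 7 B-cell markers lie left of 0.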

How the data were processed

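Per the labels' protocols, Trizol was used to extract total RNA, which was column purified and labelled with biotin for 1-colour Affymetrix arrays. The authors deposited linear intensity values, 1 per probe set; neither the summarization software nor the scaling target is given in the sources used here. On both arrays the deposited intensities had a mean of 100.0 after trimming 2% at each end, so no further scaling was applied. Gene names came from the platform annotation: of 45101 probe sets, 64 were controls, 34958 named 1 gene, 932 several, and 9160 had no listed gene here. All 10 members matched RefSeq by gene ID, and no probe set named a member among several genes.

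From the deposited intensities, log2 differences, RPE-exposed minus control, were computed in Python 3.11.15 (pandas 2.3.3, numpy 2.4.6). Signals under the floor (the median of non-control probe sets) were set to it, and each gene was read from its brightest probe set by mean log2 signal. With 10011 genes above the floor on both arrays and 1004 on 1, 11015 were compared. The like-level range is the central 95% of differences in 20 equal bins of mean level. Probe-set agreement is given as SD (pooled 0.24 over 4779 genes). With 1 array per group no test was run; calls are by fold (2 and 1.5). The reduction to genes and the 2-fold call were run on simulated data, with changes planted only in brighter genes. The 1.5-fold call and the like-level range were not tried there.

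The members and lists were chosen with earlier results of these data known. Named genes were all members and, per pathway list (not marker list), every gene at least 1.5-fold different and in any case the 2 widest differences among genes above the floor on both arrays. Other genes named, the markers, Nt5e, Egr3, Nfatc1, Nfatc2 and the relatives of Izumo1r and Nrn1 among them, were chosen after their values were seen. Alternatives varied the floor, the choice of probe sets, an offset and the normalization.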

Additional observations from a re-analysis of the deposited data

How the results depend on the processing

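All 8 alternatives kept the members' median log2 difference positive, between 0.022 and 0.10, and none brought a member to 2-fold. These medians do not cover the same members. The number compared was 10 with a 25th-percentile floor or none and 8 with a 75th-percentile floor. It was 7 without names ending in s, a or x, and 9 in the other settings. Izumo1r ran from -0.93 to -0.90 in the 7 alternatives that hold it. With 1 probe set above every floor, only the offset and quantile normalization could change it by more than a constant shift. When names ending in s, a or x were left out it has no value, and 0 members were then at least 1.5-fold lower. Nedd4 ran from -0.43 to -0.36 in 7 alternatives and also has no value in that one. Of 69 member values none moved by more than the pooled probe-set SD of 0.24, and 2 changed sign, both with averaged probe sets (Cbl at 0.13, Itch at -0.041). Many of these values could not move. Another floor leaves a gene that stays above it unchanged, and median centring adds the same amount to every gene. The SD of 0.24 is also wider than most of the members' differences, so staying within it says little. No paired analysis was possible because each group had 1 array.

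The counts over all genes depended on the floor, since dim signals dominate them. Genes at least 2-fold higher and lower numbered 658 and 577 for a 25th-percentile floor, 6 and 16 for a 75th-percentile floor, and 1730 and 1584 for none, against 48 and 69. At 1.5-fold they were 1635 and 1515, 64 and 94, and 2798 and 2597 in the same settings, against 343 and 420. Averaged probe sets left 23 genes 2-fold higher and 213 genes 1.5-fold higher. An offset of 16 left 38 genes 2-fold lower and 225 genes 1.5-fold higher.

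Among the lists at 1.5-fold, other ligases and adaptors had 1 higher under a 75th-percentile floor, 0 on averaging probe sets, and 1 when names ending in s, a or x were left out. Ligases related to Rnf128 had 1 higher under a 25th-percentile floor and 2 under none. Other diacylglycerol kinases had 2 lower in each of these. Other surface genes had 0 higher under a 75th-percentile floor, 0 with an offset of 16 and 1 on averaging, and 1 lower with no floor. Signals near the floor, such as those of Nrn1 and Rnf128, limit what these arrays can show.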
